A study of Mus musculus with 4 samples.

Results

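The genes described here are the 10 that encode the chains of 5 cytokine receptors, those for interferon gamma (Ifngr1, Ifngr2), type I interferon (Ifnar1, Ifnar2), interleukin 12 (Il12rb1, Il12rb2), interleukin 18 (Il18r1, Il18rap) and interleukin 6 (Il6ra, Il6st). They were taken by gene name from a table of 53465 genes, and each name stood on 1 row. The cells were CD8+ T cells of the mouse spleen, purified and then held for 24 h with anti-CD3/CD28 beads, which stand in for antigen and costimulation. Their RNA was sequenced in 4 libraries, 2 labelled PP2Cm KO (PP2Cm-/-) and 2 labelled wild type (WT), numbered as biological replicates. Every library came from stimulated cells, so the levels are those of activated cells under both labels. PP2Cm, encoded by Ppm1k, is the mitochondrial phosphatase that switches on the breakdown of branched-chain amino acids. How the knockout was made, and the age, sex and strain of the mice, are not stated in the labels used here. Nor do they say whether the replicates came from separate mice, so a p value measures only the spread between these libraries.

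The genotype labels conflict. In each library the title and genotype field name 1 genotype, the description code starts with the letters of the other, and the groups follow the title and genotype field. Ppm1k had 157 and 206 counts in the libraries labelled KO, against 102 and 94 counts in those labelled WT, which goes against the labels. The groups are therefore called the libraries labelled KO and the libraries labelled WT. Every direction given here would turn round if the description codes held the true genotype. Library totals ran from 12967251 to 17316284 counts, and 13528 genes had enough counts to be tested, all 10 receptor chains among them.

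Each of these receptors is described here by a pair of different chains. Interferon gamma binds IFNGR1, while IFNGR2 completes the complex, and the kinases JAK1 and JAK2 then pass on the signal. Type I interferons bind IFNAR2 and IFNAR1, and the kinases TYK2 and JAK1 act on STAT2, which binds IRF9. Interleukin 12 signals to STAT4 through IL-12Rβ1, a chain shared with the interleukin 23 receptor, and IL-12Rβ2, which T cells gain on activation. Interleukin 18 uses IL18R1 and IL18RAP, whose inner parts recruit the adaptor MyD88, and together with interleukin 12 it drives interferon gamma production. Interleukin 6 binds IL-6Rα, which pairs with gp130, the Il6st product and common signal chain of the interleukin 6 family, and STAT3 is activated.

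Ifngr1 differed most between the labels, at 68.6 ± 5.59 CPM (counts out of 1000000 in the library) in those labelled KO and 128 ± 7.52 CPM in the libraries labelled WT (SD, n = 2 each), 1.86-fold lower in the libraries labelled KO. Both chains of the type I interferon receptor had lower levels in both libraries labelled KO, by 32.4% for Ifnar1 and 30.1% for Ifnar2. Il18rap and Il18r1 also had lower means under the KO label, but varied widely between replicates. The other chain of the interferon gamma receptor, Ifngr2, and Il12rb1, Il6ra and Il6st had log2 fold changes between −0.09 and 0.02. None of the 10 chains passed an adjusted p of 0.05 over all genes by edgeR's quasi-likelihood test, where 0.207% of genes tested did. Ifngr1 stood just outside, with an adjusted p of 0.0502.

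By unadjusted p under 0.05, 5 of the 10 chains were lower and 0 higher in the libraries labelled KO, where 7.23% of genes tested were lower and 5.7% higher by that rule. The 5 became 3 without labelled WT replicate 2 and 3 without labelled KO replicate 2. DESeq2 called 1 of the 10, Ifngr1, as lower, where it called 2.09% of genes with an adjusted p, and 1.4% as lower. In 5 chains both libraries labelled KO lay below both labelled WT, which was so for 23.3% of genes tested, and in the other 5 the labels overlapped. The log2 fold change was negative in 9 chains, as in 51.9% of genes tested, and positive in 1. Its median was −0.41, against a median of −0.01 over all genes tested. With single libraries left out, that median ran from −0.46 to −0.35 and the number of negative chains from 7 to 9.

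**Figure D1:**
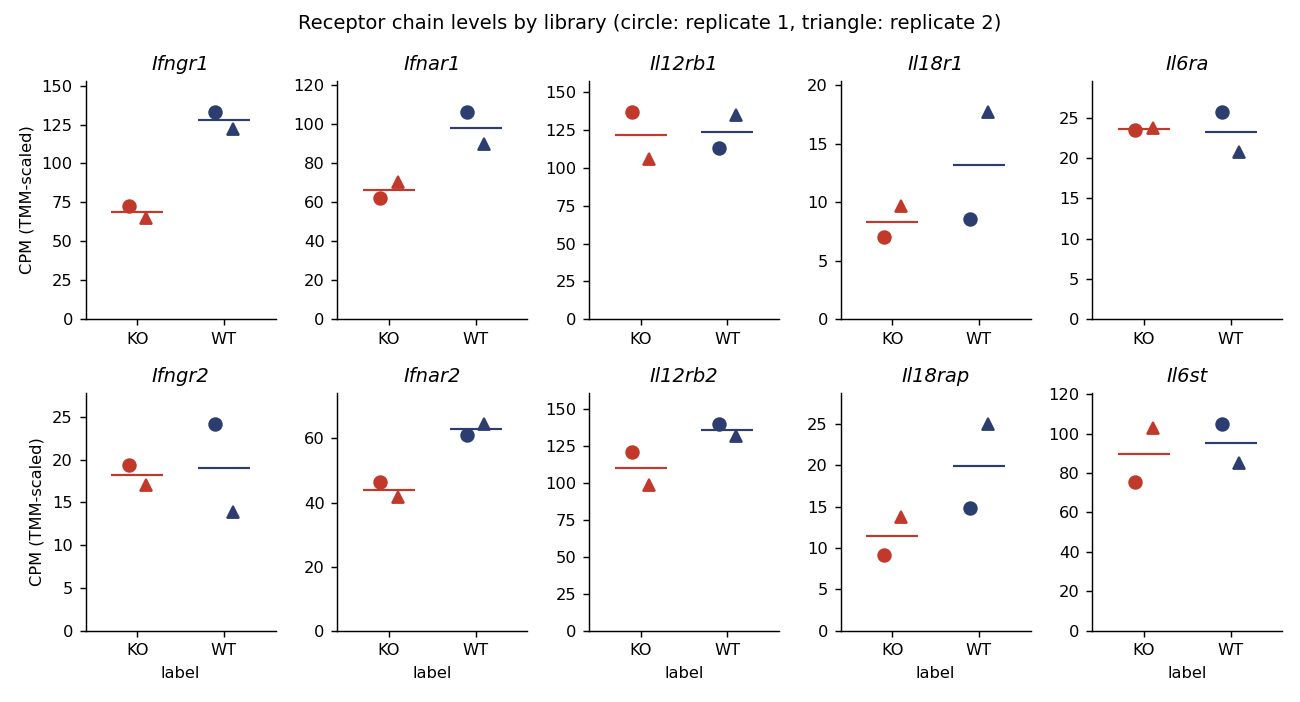
Level of each receptor chain in CPM (y axis, from 0) in the libraries labelled KO (left, red) and labelled WT (right, blue), with circles for replicate 1, triangles for replicate 2 and a line at the mean of 2 libraries. Ifngr1 stands at 72.6 and 64.7 CPM under the KO label, below 133 and 122 CPM under the WT label, while the 2 labels overlap in Ifngr2.

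The start regions of the 5 chains whose labels did not overlap are shown, a choice made from their levels. Whether these genes are regulated together was not tested. Each is a RefSeq promoter window of 300 bases in GRCm38.p6, with 250 bases before the start site of a RefSeq transcript and 50 after it, read along the gene. That site is the gene's annotated start in 4 of the 5, and in Ifnar1 it lies 23 bases before it. They lie at chr10:19591699-19591998 on the plus strand for Ifngr1, chr16:91484965-91485264 on the plus strand for Ifnar1, chr16:91372533-91372832 on the plus strand for Ifnar2, chr6:67376139-67376438 on the minus strand for Il12rb2 and chr1:40515112-40515411 on the plus strand for Il18rap. Capitals mark the letters TTCNNNGAA, the GAS motif that STAT dimers bind.
Ifngr1: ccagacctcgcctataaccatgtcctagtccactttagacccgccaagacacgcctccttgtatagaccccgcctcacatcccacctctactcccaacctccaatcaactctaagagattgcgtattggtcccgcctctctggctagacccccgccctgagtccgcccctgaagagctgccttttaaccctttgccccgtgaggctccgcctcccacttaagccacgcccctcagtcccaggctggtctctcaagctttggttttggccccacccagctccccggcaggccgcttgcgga
Ifnar1: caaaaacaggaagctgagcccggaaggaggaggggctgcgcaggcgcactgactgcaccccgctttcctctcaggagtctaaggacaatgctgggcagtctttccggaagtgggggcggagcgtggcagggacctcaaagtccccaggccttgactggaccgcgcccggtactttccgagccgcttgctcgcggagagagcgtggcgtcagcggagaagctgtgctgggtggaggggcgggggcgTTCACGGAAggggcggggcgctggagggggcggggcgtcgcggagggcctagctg
Ifnar2: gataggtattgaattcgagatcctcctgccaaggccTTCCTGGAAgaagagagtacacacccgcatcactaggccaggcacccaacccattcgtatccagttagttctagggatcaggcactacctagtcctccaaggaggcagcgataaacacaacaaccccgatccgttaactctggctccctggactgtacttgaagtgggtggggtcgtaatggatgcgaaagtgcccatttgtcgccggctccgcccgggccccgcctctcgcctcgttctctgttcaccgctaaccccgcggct
Il12rb2: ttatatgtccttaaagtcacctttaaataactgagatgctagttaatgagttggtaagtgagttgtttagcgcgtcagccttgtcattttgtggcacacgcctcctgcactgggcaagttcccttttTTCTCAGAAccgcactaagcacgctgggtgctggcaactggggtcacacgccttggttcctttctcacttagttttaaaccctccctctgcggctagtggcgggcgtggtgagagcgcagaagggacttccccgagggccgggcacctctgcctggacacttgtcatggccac
Il18rap: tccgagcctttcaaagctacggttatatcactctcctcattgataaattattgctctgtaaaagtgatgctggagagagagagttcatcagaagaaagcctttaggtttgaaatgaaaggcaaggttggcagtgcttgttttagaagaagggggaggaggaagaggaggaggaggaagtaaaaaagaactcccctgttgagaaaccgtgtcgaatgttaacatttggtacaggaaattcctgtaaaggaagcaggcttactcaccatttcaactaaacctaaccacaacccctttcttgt
Counted from the window's start site, with −1 the base before it, the motif begins at −5 in Ifnar1, which is −28 from the annotated gene start, −214 in Ifnar2 and −123 in Il12rb2, and its letters are not in the windows of Ifngr1 and Il18rap. GAS reads the same on both strands. Windows were found for 9 of the 10 genes, 11 in all, since Il18r1 has 3. The letters were in 4 of the 11 windows, the 4th being 1 of those of Il18r1, and in 8.3% of the 32851 windows of the whole table. That Il18r1 window's start site lies 454 bases after the annotated gene start, and its matches begin at 236 and 303 counted from the gene start. The other windows of Il18r1 do not hold the letters. The interferon response motif ISRE, searched on both strands, was in 0 of the 11 and in 3.44% of all windows. TGANTCA, the letters of AP-1 sites and also their own reverse complement, was in 0 of the 11 and in 7.81% of all. GC content was 60.3% for Ifngr1, 68.3% for Ifnar1 and 57% for Ifnar2, against 42.3% for Il18rap. A match describes letters and not a bound site.

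The first receptor asked about was that for interferon gamma, the cytokine that activated CD8+ T cells make themselves. Ifngr1 (ENSMUSG00000020009, chromosome 10, 19591949 to 19610229 in GRCm38, plus strand) encodes the ligand-binding chain. It had 965 and 934 counts in the libraries labelled KO, against 1729 and 2076 counts in those labelled WT, or 72.6 and 64.7 CPM against 133 and 122 CPM. Both libraries labelled KO were low and close to each other, and the labels were far apart. The log2 fold change was −0.89 (SE 0.12, 95% limits −1.18 and −0.61), which ranked 41st of 13528 genes by p. With single libraries left out it stayed between −0.98 and −0.81. Its adjusted p by edgeR ranged from 0.0101 to 0.298 in those fits, lowest without labelled WT replicate 2 and highest without labelled KO replicate 2, and by DESeq2 it was 6.4e-06. Over all its alternatives it ran from 6.4e-06 to 0.298, so that the side of the threshold depends on the fit while the size of the difference moved little. As these are bulk samples, fewer cells that carry a transcript and less of it per cell cannot be told apart.

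Ifngr2 (ENSMUSG00000022965, chromosome 16, 91547072 to 91565169, plus strand) encodes the second chain, which binds JAK2 and is the scarcer one in many T cells. It had 19.4 and 17.0 CPM in the libraries labelled KO, against 24.2 and 13.9 CPM in those labelled WT. The libraries labelled KO lay between those labelled WT, so the labels overlapped. Its log2 fold change was −0.06 (SE 0.27), with 95% limits of −0.70 and 0.58 that also allow sizeable differences either way. Leaving out labelled WT replicate 1 gave 0.39 and leaving out labelled WT replicate 2 gave −0.41.

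Per gene length, by the authors' FPKM, Ifngr1 exceeded Ifngr2 in every library, by 3.15 and 3.21 times in the libraries labelled KO and by 4.62 and 7.4 times in those labelled WT. The ratio was lower in both libraries labelled KO, by 0.88 on the log2 scale. The exact two-sided permutation p was 0.333, the smallest that 2 against 2 libraries allow. The difference was −1.22 when labelled WT replicate 1 was left out and −0.54 when replicate 2 was.

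The type I interferon receptor binds the antiviral interferons alpha and beta. Ifnar1 (ENSMUSG00000022967, chromosome 16, 91485238 to 91507441, plus strand), the chain that holds TYK2, had 61.9 and 70.3 CPM in the libraries labelled KO, against 106 and 89.7 CPM in those labelled WT. All libraries labelled KO were lower than all labelled WT. The log2 fold change was −0.56 (SE 0.14), with an unadjusted p of 0.00468 and an adjusted p of 0.186 by edgeR, and it stayed between −0.68 and −0.44 with single libraries left out. The alternatives gave it adjusted p values from 0.0604 to 0.53.

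Ifnar2 (ENSMUSG00000022971, chromosome 16, 91372783 to 91405589, plus strand), the high-affinity chain that holds JAK1, had 46.4 and 41.6 CPM in the libraries labelled KO, against 61.2 and 64.6 CPM in those labelled WT. Again the labels did not overlap. The log2 fold change was −0.52 (SE 0.14), with an unadjusted p of 0.00716 and an adjusted p of 0.218, and a range of −0.60 to −0.43 with single libraries left out. Its adjusted p ranged from 0.109 to 0.766 over the alternatives. Both chains stood lower to a like degree: Ifnar1 over Ifnar2 in FPKM was 0.84 and 1.06 in the libraries labelled KO and 1.09 and 0.875 in those labelled WT. Ifnar2 shares 315 exon bases on its own strand with Gm21970, a gene with 70 and 74 counts in the libraries labelled KO and 39 and 104 in those labelled WT, so how reads were divided between them is uncertain.

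Ifnar2, Ifnar1 and Ifngr2 lie side by side within 192841 bases of chromosome 16, together with Il10rb, which encodes the shared second chain of the interleukin 10 and related receptors. Il10rb had 36.2 and 32.3 CPM in the libraries labelled KO, against 50 and 40.5 CPM in those labelled WT. Its log2 fold change was −0.40 (SE 0.17), with an unadjusted p of 0.0486 and an adjusted p of 0.384. In this row of receptor genes 3 had both libraries labelled KO below both labelled WT, as had 23.3% of all genes tested, and Ifngr2 did not.

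**Figure D2:**
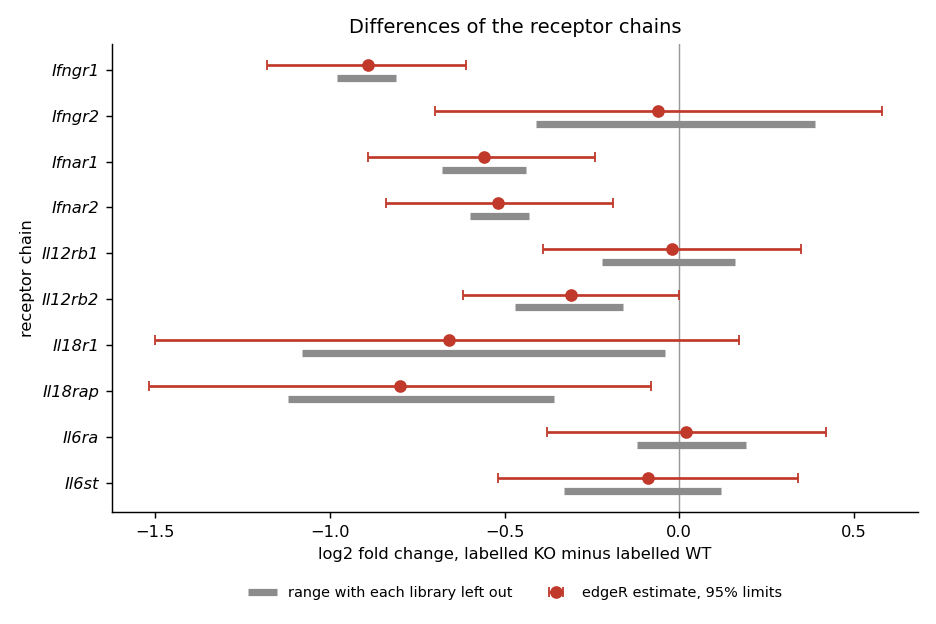
Log2 fold change of each receptor chain, labelled KO minus labelled WT (x axis), with the edgeR estimate and its 95% limits in red and the range over the 4 fits that leave out 1 library in grey. Ifngr1 lies at −0.89 with a range of −0.98 to −0.81, while the range of Ifngr2 runs from −0.41 to 0.39 and that of Il18r1 from −1.08 to −0.04.

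The interleukin 12 receptor makes CD8+ T cells answer to a cytokine of dendritic cells that promotes interferon gamma and cytotoxic function. Il12rb1 (ENSMUSG00000000791, chromosome 8, 70808449 to 70821424, plus strand) had 137 and 106 CPM in the libraries labelled KO, against 113 and 135 CPM in those labelled WT. The libraries labelled KO spanned those labelled WT. Its log2 fold change was −0.02 (SE 0.16), with 95% limits of −0.39 and 0.35.

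Il12rb2 (ENSMUSG00000018341, chromosome 6, 67291318 to 67376188, minus strand), the signalling chain, had 121 and 98.4 CPM in the libraries labelled KO, against 140 and 132 CPM in those labelled WT. Both libraries labelled KO were lower, and labelled KO replicate 2 was the lowest. The log2 fold change was −0.31 (SE 0.13), with an unadjusted p of 0.0498 and an adjusted p of 0.386, which ranged from 0.379 to 0.939 over the alternatives. It was −0.16 without labelled KO replicate 2 and −0.47 without labelled KO replicate 1. The gene shares 1519 exon bases on the opposite strand with Serbp1, a gene with 656 and 729 CPM in the libraries labelled KO and 812 and 608 CPM in those labelled WT. The sources used here do not say if reads were counted by strand, so reads of Serbp1 could be counted to Il12rb2, and their part in its level was not tested. The ratio of Il12rb1 to Il12rb2 in FPKM was 0.984 and 0.937 in the libraries labelled KO and 0.695 and 0.882 in those labelled WT, higher in both libraries labelled KO, with an exact permutation p of 0.333.

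The interleukin 18 receptor marks effector and memory T cells and lets them make interferon gamma without antigen when interleukin 12 is present. Its genes are neighbours on chromosome 1, on the plus strand, within 86154 bases. Il18r1 (ENSMUSG00000026070, 40465552 to 40500854), the binding chain, had 93 and 140 counts in the libraries labelled KO, against 112 and 301 counts in those labelled WT, or 6.99 and 9.69 CPM against 8.6 and 17.7 CPM. The labels overlapped, and labelled WT replicate 2 was far above the other libraries. The log2 fold change was −0.66 (SE 0.35), with an adjusted p of 0.489. It was −0.04 without labelled WT replicate 2. Without labelled WT replicate 1 it was −1.08 and called, at an adjusted p of 0.0446, the lowest among alternatives that reached 0.971.

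Il18rap (ENSMUSG00000026068, 40515362 to 40551705), the accessory chain, had 122 and 198 counts in the libraries labelled KO, against 192 and 425 counts in those labelled WT, or 9.17 and 13.7 CPM against 14.8 and 25 CPM. The labels did not overlap, though labelled KO replicate 2 came close to labelled WT replicate 1. Its log2 fold change was −0.80 (SE 0.30), with an unadjusted p of 0.0337 and an adjusted p of 0.343. It was −0.36 without labelled WT replicate 2, −0.54 without labelled KO replicate 1 and −1.12 without labelled WT replicate 1, the fit that called it. The adjusted p was 0.0411 there and up to 0.657 elsewhere. Both interleukin 18 receptor chains were highest in labelled WT replicate 2 and lowest in labelled KO replicate 1. The ratio of Il18r1 to Il18rap in FPKM, by contrast, kept to a narrow band, at 0.663 and 0.615 in the libraries labelled KO and 0.507 and 0.616 in those labelled WT.

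The interleukin 6 receptor is carried by naive T cells, which lose much of IL-6Rα on activation, partly through shedding by the proteases ADAM10 and ADAM17. Il6ra (ENSMUSG00000027947, chromosome 3, 89864059 to 89913196, minus strand) had 23.5 and 23.7 CPM in the libraries labelled KO, against 25.7 and 20.8 CPM in those labelled WT. The libraries labelled KO lay between those labelled WT, and the log2 fold change was 0.02 (SE 0.17), with 95% limits of −0.38 and 0.42. It overlaps the antisense gene Gm42809, which had 0 and 5 counts in the libraries labelled KO and 0 and 3 in those labelled WT.

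Il6st (ENSMUSG00000021756, chromosome 13, 112464070 to 112510086, plus strand) had 75.5 and 103 CPM in the libraries labelled KO, against 105 and 85.2 CPM in those labelled WT. The labels overlapped, and the log2 fold change was −0.09 (SE 0.18), with 95% limits of −0.52 and 0.34. In FPKM Il6ra stood below Il6st in every library, at 0.497 and 0.367 of it in the libraries labelled KO and 0.39 and 0.391 in those labelled WT.

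**Figure D3:**
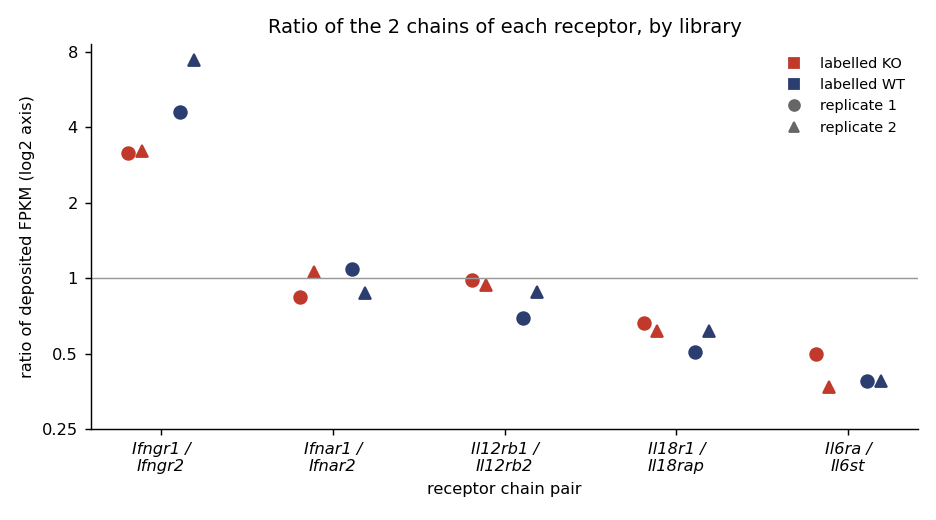
Ratio of the authors' FPKM of the 2 chains of each receptor in each library (y axis, log2 scale), libraries labelled KO left in red and labelled WT right in blue, circles for replicate 1 and triangles for replicate 2. Ifngr1 over Ifngr2 is 3.15 and 3.21 under the KO label and 4.62 and 7.4 under the WT label, while the ratios of Ifnar1 to Ifnar2 lie on both sides of 1 under both labels.

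Levels of different chains were compared per gene length, as FPKM averaged over the 4 libraries. Il12rb2 (27.2 FPKM), Il12rb1 (23.5) and Ifngr1 (23.5) led, above 84.4%, 82.4% and 82.3% of genes tested. Their ranges over libraries overlapped, so their order is not settled. The level of Il12rb2 could also hold reads of Serbp1, with which it shares exon bases. Ifnar2 (8.72 FPKM), Ifnar1 (8.42), Ifngr2 (5.31) and Il6st (5.27) followed, and each overlapped the next. The 3 leading genes and these 4 did not overlap. The lowest value of the 3, 15.8 FPKM for Ifngr1 in labelled KO replicate 2, exceeded the highest of the 4. That was 10.9 FPKM for Ifnar1 in labelled WT replicate 1. Il6ra (2.14 FPKM), Il18rap (2.09) and Il18r1 (1.25) were lowest, again overlapping among themselves. Il18r1 stood above 21.4% of genes tested. These levels depend on the authors' gene lengths, which for 9 of the 10 genes exceed the exon length in GENCODE M21, for Il6st with 17535 against 11099 bases.

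The ligands were examined next, from a list of 21. Of these, 13 had under 10 counts in every library and 5 of them had 0 counts in all. A count of 0 allows up to 3 counts of a library's total, or 0.173 to 0.231 CPM across the 4 libraries, for counting error alone. Il6, Il18 and Il12b, which encode interleukin 6, interleukin 18 and a chain of interleukin 12, were among the 13. Lif is an interleukin 6 family cytokine that signals through gp130. It was the 1 member of any list to pass edgeR's adjusted threshold, which 0.207% of genes tested passed. Its level was 135 and 157 CPM in the libraries labelled KO, against 70.9 and 59.8 CPM in those labelled WT, a 2.24-fold rise. Its adjusted p was 0.0415, and it missed the threshold with library totals only, on both FPKM scales and without labelled KO replicate 2. The lowest adjusted p among its alternatives was 6.46e-09. Lifr, the chain that pairs with gp130 to bind LIF, had 0 and 0 counts in the libraries labelled KO and 0 and 5 in those labelled WT. Lifr was chosen after its values were seen.

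Ifng, the ligand of the IFNGR1 chain, had 93.5 and 161 CPM in the libraries labelled KO, against 65.8 and 93.8 CPM in those labelled WT. The labels overlapped, if narrowly, with a log2 fold change of 0.68 (SE 0.27), an unadjusted p of 0.0439 and an adjusted p of 0.374. It ran from 0.23 to 1.02 with single libraries left out. Ebi3, a chain of interleukin 27, had 2.86 and 2.56 CPM in the libraries labelled KO against 5.76 and 4.3 CPM in those labelled WT, a log2 fold change of −0.89 (SE 0.29) with an adjusted p of 0.279.

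Receptors of the same families gave 9 tested genes of 19, with 0 called by edgeR or DESeq2, 1 lower and 0 higher by unadjusted p, where 7.23% of all genes tested were lower, and a median log2 fold change of −0.28. Leaving out labelled WT replicate 1 brought it to −0.17, and leaving out labelled WT replicate 2 brought it to −0.11. The 1 lower gene became 2 without labelled KO replicate 1 and 0 without labelled KO replicate 2. Apart from Il10rb, the smallest p values belonged to Sigirr, a brake on interleukin 1 family receptors, at −0.28 (adjusted p = 0.582), and Il1rl1, the interleukin 33 receptor, at −0.88 (adjusted p = 0.681). Il1rl1 had 13 and 13 counts in the libraries labelled KO against 6 and 49 in those labelled WT, and its log2 fold change ran from −1.61 to 1.01 with single libraries left out.

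Of the kinases and transcription factors that these receptors use, 10 are reported here, and all 10 were tested. By edgeR 0 were called, and 0 by DESeq2, and by unadjusted p 3 were lower, but 1 without labelled KO replicate 1, and 1 was higher. Of all genes tested, 7.23% were lower and 5.7% higher by unadjusted p. Both libraries labelled KO lay below both labelled WT in 6 and above in 1, where 23.3% of all genes tested were below and 21.5% above. The median log2 fold change was −0.24, or −0.15 without labelled KO replicate 1. Irf9, the partner of STAT2, had 28.9 and 31.6 CPM in the libraries labelled KO, against 46.4 and 42.1 CPM in those labelled WT, a log2 fold change of −0.55 (SE 0.15) with an adjusted p of 0.229. Tyk2 (−0.36, adjusted p = 0.309) and Jak1 (−0.31, adjusted p = 0.32), the kinases on the type I interferon receptor, followed.

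On the path from the interleukin 18 receptor, 9 of 10 genes were tested, 0 were called by either tool and the median was 0.02. By unadjusted p 1 was higher, where 5.7% of all genes tested were. That 1 gene was Traf6, the ubiquitin ligase that passes the signal to NF-kappaB, with a log2 fold change of 0.40 (adjusted p = 0.238). Tab3, a partner of the kinase TAK1, stood at 0.35 (adjusted p = 0.427) and the kinase Irak2 at −0.36 (adjusted p = 0.523). Myd88 lay outside the naming rule and had a log2 fold change of −0.05.

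Inhibitors of these receptors and the shedding proteases gave 13 tested genes of 13, 0 called by edgeR and 1 by DESeq2. By unadjusted p 1 was lower and 2 higher, where 7.23% of all genes tested were lower and 5.7% higher. DESeq2 called 2.09% of all genes with an adjusted p. The median was −0.08, and it ran from −0.13 to 0.07 with single libraries left out. Usp18, which binds IFNAR2 and blocks type I interferon signals, had 15.9 and 15.7 CPM in the libraries labelled KO, against 24.7 and 51.1 CPM in those labelled WT. Its log2 fold change was −1.27 (SE 0.32), with an adjusted p of 0.201 by edgeR and 0.0128 by DESeq2, and it ran from −1.69 to −0.65 with single libraries left out. Cish, a feedback inhibitor of cytokine receptors that use STAT5, had 219 and 193 CPM in the libraries labelled KO, against 39.1 and 118 CPM in those labelled WT, a log2 fold change of 1.38 (SE 0.44) with an adjusted p of 0.274. That value ran from 0.81 to 2.40 with single libraries left out, and the lowest adjusted p among its alternatives was 4.91e-05. Socs2, of the same family, stood at 0.76 (adjusted p = 0.307).

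**Figure D4:**
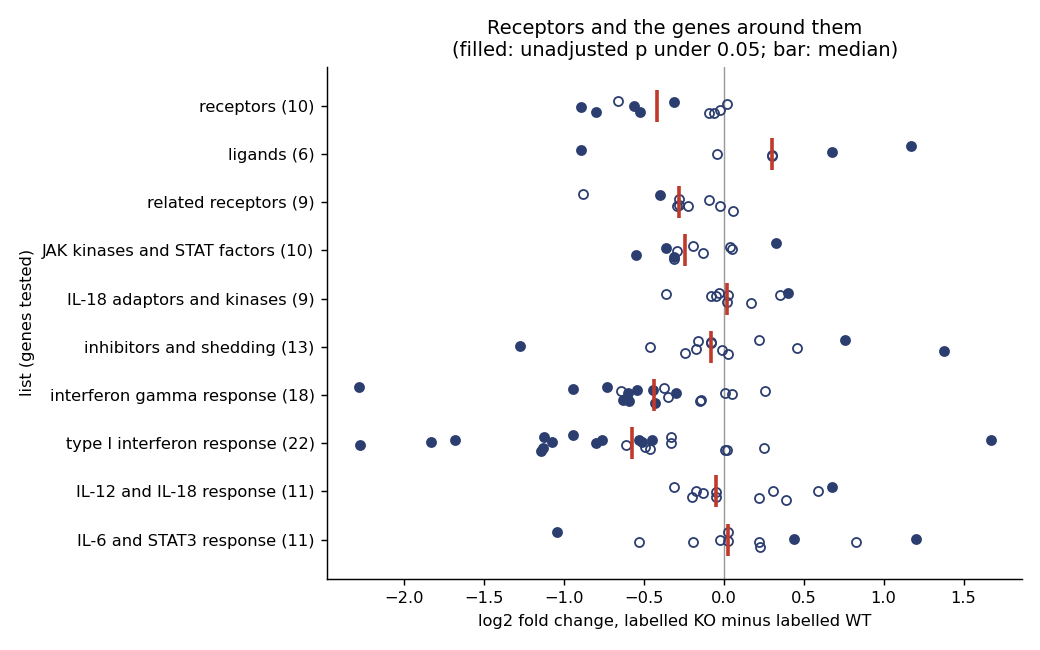
Log2 fold change, labelled KO minus labelled WT (x axis), of each tested gene in the receptor list and the 9 lists around it (rows, with the number of genes tested), filled where the unadjusted p was under 0.05, with a red bar at the median. The medians are −0.41 for the receptors, −0.43 for the interferon gamma response and −0.57 for the type I interferon response, and 0.02 for the interleukin 18 adaptors and kinases.

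Genes that interferon gamma induces, such as the guanylate-binding proteins and antigen-processing genes, stood lower in the libraries labelled KO in most cases. Of 18 tested members of 19, 15 lay below and 3 above a log2 fold change of 0. The median was −0.43, and both libraries labelled KO lay below both labelled WT in 14, where 23.3% of all genes tested did. None was called by edgeR and DESeq2 called 3 lower, as it did 1.4% of all genes. By unadjusted p 10 were lower and 0 higher, against 7.23% and 5.7% of all genes tested, and the 10 became 5 without labelled KO replicate 2. Gbp3, a GTPase of defence against intracellular microbes, had 16.8 and 18.8 CPM in the libraries labelled KO, against 36.1 and 32.3 CPM in those labelled WT. Its log2 fold change was −0.94 (SE 0.16), with an adjusted p of 0.0883 by edgeR and 0.00192 by DESeq2. Gbp5, a related GTPase, stood at −0.73 (adjusted p = 0.191) and the chemokine Cxcl10 at −2.28 (adjusted p = 0.117). Cxcl10 had few counts, 20 and 21 in the libraries labelled KO against 58 and 168 in those labelled WT. Its log2 fold change ran from −2.73 to −0.89 over the alternatives. Leaving out labelled WT replicate 1 brought the median to −0.27.

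Type I interferon targets gave 22 tested members of 23, 18 below and 4 above a log2 fold change of 0, and a median of −0.57. By unadjusted p 13 were lower and 1 higher, against 7.23% and 5.7% of all genes tested. Those lower numbered 8 without labelled WT replicate 2, 6 without labelled KO replicate 1 and 7 without labelled KO replicate 2. By edgeR 0 were called and by DESeq2 2, both lower, where DESeq2 called 1.4% of genes as lower. The smallest p values were those of Oas3 at −1.14 (adjusted p = 0.124), Ifi27l2a at −1.07 (adjusted p = 0.154) and Trim30a at −0.51 (adjusted p = 0.174), interferon-induced genes all. Of the ligands of the type I receptor in the list, Ifnb1 had 0 counts in every library and Ifna4 at most 4.

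Of the genes tied to interleukin 12 and 18, 11 of 12 were tested, 0 were called by either tool and the median was −0.05. By unadjusted p under 0.05, 1 was higher (Ifng) and 0 lower, where 5.7% of all genes tested were higher and 7.23% lower. Ccl4, a chemokine of effector cells, stood at 0.59 (adjusted p = 0.518, and −0.07 to 1.04 with single libraries left out) and Runx3, a transcription factor of cytotoxic T cells, at −0.20 (adjusted p = 0.546). That median was 0.34 without labelled WT replicate 2. Targets of interleukin 6 and STAT3 gave 11 tested of 12, a median of 0.03 and 0 called by edgeR. DESeq2 called 1, Pim1, where it called 2.09% of all genes with an adjusted p. Pim1, a survival kinase, had 468 and 474 CPM in the libraries labelled KO, against 353 and 343 CPM in those labelled WT, a log2 fold change of 0.44 (SE 0.10) with an adjusted p of 0.179 by edgeR and 0.021 by DESeq2. Ahr, a ligand-activated transcription factor, stood at 1.2 (adjusted p = 0.154) and Bcl6, a repressor tied to memory and follicular fates, at −1.04 (adjusted p = 0.228).

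Among 10963 protein-coding genes outside these lists, those closest to Ifngr1 in centred log2(CPM + 0.5) over the 4 libraries were Tbxa2r, which encodes the thromboxane A2 receptor, Hip1r, an endocytic adaptor, and Nqo1, a quinone reductase. Their root-mean-square distances were 0.0086, 0.0383 and 0.0440 on the log2 scale. Tbxa2r had 25.3 and 22.4 CPM in the libraries labelled KO, against 46.6 and 42.2 CPM in those labelled WT. Nqo1 had 0.301 and 0.208 CPM in the libraries labelled KO, against 0.999 and 0.942 CPM in those labelled WT, a 3.82-fold difference that the constant of 0.5 shrinks to near that of Ifngr1. With 4 libraries this is a description only.

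Markers of other cell types were read as summed CPM. The 9 markers of CD8 T cells summed to 2920 and 2710 CPM in the libraries labelled KO and 3280 and 3030 CPM in those labelled WT. In 4 of the 9 both libraries labelled KO lay below both labelled WT, as in 23.3% of all genes tested, while Cd8a overlapped between the labels. The 10 myeloid markers summed to 5.41 and 4.71 CPM in the libraries labelled KO and 3.23 and 7.65 CPM in those labelled WT, with Fcgr1 and S100a9 at 0 in all libraries. Myeloid cells carry both interferon receptors, and these sums overlapped between the labels. The 7 NK cell markers, a cell type rich in the interleukin 18 receptor, summed to 125 and 153 CPM in the libraries labelled KO and 132 and 170 CPM in those labelled WT, most of it Nkg7, which CD8+ T cells express too, while Ncr1 stayed between 0 and 1.18 CPM. Like the interleukin 18 receptor chains, this sum was highest in labelled WT replicate 2 and lowest in labelled KO replicate 1. That order was set by Nkg7, at 110 and 145 CPM under the KO label and 120 and 157 CPM under the WT label. Klrb1c and Klrb1b were highest in labelled KO replicate 1, and Ncr1 and Tyrobp in labelled WT replicate 2. The part of the NK markers in the levels of the receptor chains was not tested. The 8 B cell markers summed to 18.8 and 12.1 CPM in the libraries labelled KO and 20.5 and 23.1 CPM in those labelled WT. The 7 dendritic cell markers summed to 7.07 and 11.9 CPM in the libraries labelled KO and 11.4 and 12.2 CPM in those labelled WT, with Cd209a at 0 throughout. The 6 CD4 and regulatory T cell markers summed to 131 and 112 CPM in the libraries labelled KO and 73.7 and 63.5 CPM in those labelled WT. Ccr4 was the largest of them, at 84.1 and 71.3 CPM under the KO label and 34.7 and 25.3 CPM under the WT label. Of the 6 markers, 4 were higher in each library labelled KO than in either labelled WT, and 1 was lower. Of all genes tested, 21.5% were higher and 23.3% lower in that way. The 4 included Cd4 itself, at 10 and 5.12 CPM under the KO label and 3 and 4.71 CPM under the WT label. The 6 stromal and endothelial markers summed to 18 and 19 CPM in the libraries labelled KO and 37 and 31.2 CPM in those labelled WT, nearly all Pecam1, with Cdh5, Col3a1 and Kdr at 0. The 6 erythroid and platelet markers summed to 0.827 and 1.18 CPM in the libraries labelled KO and 1.77 and 4.06 CPM in those labelled WT, with Alas2 and Gp9 at 0. The part of these sums in the receptor differences was not tested.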

How the data were processed

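RNA of 4 libraries was sequenced after a stranded library kit, per the labels' protocols. The authors deposited counts per gene, whole numbers with no normalization, and FPKM, per kilobase of gene length and 1000000 counts of the library, per the file headers. The submitters' processing notes name kallisto and GRCm38 with no version or role. No source used here gives the strand setting, annotation or filters. Columns were joined to samples through the description codes. The table's 8 other columns of values were not used.

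In R 4.3.3, edgeR 4.0.16 filtered the genes (filterByExpr), scaled libraries by TMM and gave two-sided quasi-likelihood F tests of the libraries labelled KO over those labelled WT. The Benjamini-Hochberg adjustment took in all 13528 genes that passed the filter, and an adjusted p under 0.05 is a call. The standard error is the log2 fold change over the square root of F, CPM are TMM-scaled and n is 2 libraries per label. The fit was tested on simulated data. Alternatives were DESeq2 1.42.0, limma 3.58.1 on log2(FPKM + 1) and log2(FPKM + 0.1), other scaling and filters, a replicate block and leaving out each library.

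All 10 receptor chains were named, and in each list the called genes and the 3 with the smallest p. Other genes named were chosen after their values were seen. The receptors and lists were chosen with earlier results of these data known. A gene of the list of kinases and transcription factors is not reported here and stays out of that list's counts and median. Deviations of same-numbered libraries were only weakly related, and negatively (correlation −0.168 across genes), so the numbers were not taken as pairs. Replicate pairs differed well beyond sampling noise, with a chi-square per degree of freedom of 14 for the labelled KO and 19.4 for the labelled WT pair.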

Additional observations from a re-analysis of the deposited data

How the results depend on the processing

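The number of receptor chains called, 0 by the edgeR test, was 1 by DESeq2, 1 with no filter on low counts, 1 with at least 1 CPM in 2 libraries and 1 with the replicate block, each time Ifngr1, and from 0 to 3 with single libraries left out. Ifngr1, Il18r1 and Il18rap made up the 3 called without labelled WT replicate 1. Over all genes 28 were called, against 277 by DESeq2, 146 with no filter, 51 with at least 1 CPM in 2 libraries, 123 with the replicate block, 5 on log2(FPKM + 1), 4 on log2(FPKM + 0.1), and 8 to 304 with single libraries left out. Such fits take their spread from the pair left whole. A crossed replicate block, added after seeing the data, called 12 genes and 0 receptor chains. The replicate numbers share only a number, so the block is no paired test.

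Lif, the called gene, kept its sign under every alternative run. Among the uncalled chains, Ifngr2 was 0.00 on log2(FPKM + 0.1), and with single libraries left out ran from −0.41 to 0.39, Il12rb1 from −0.22 to 0.16, Il6ra from −0.12 to 0.19 and Il6st from −0.33 to 0.12. The cause was not tested. The other 6 chains kept their sign under every alternative run.

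Among the lists, the ligand call (Lif) went to 0 with library totals only and on both FPKM scales, and ran from 0 to 1 with libraries left out. Called inhibitors numbered 1 by DESeq2 (Usp18) and 1 with the replicate block (Cish), and 0 to 2 with libraries left out. Interferon gamma response genes numbered 3 by DESeq2, 2 with no filter, 1 with the replicate block and 0 to 4 with libraries left out. Type I interferon response genes numbered 2 by DESeq2, 1 with no filter, 1 with the replicate block and 0 to 3 with libraries left out. Of interleukin 6 and STAT3 response genes 1 was called by DESeq2 and 0 to 1 with libraries left out. Calls over all genes moved too, from 28 by the edgeR test to 277 by DESeq2, 146 with no filter and 123 with the replicate block. Whether the list counts moved more than that was not tested. The planned protein motifs and identities were not analysed here.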
